A study of Mus musculus with 16 samples.

Results

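The first molar of the lower jaw was compared with the other teeth of the series in order to find genes gained or lost in that tooth alone, in the same direction against both. The mandibular molar was represented by 8 samples of the 16 in the series, and it was set against 4 samples of the lower incisor and 4 samples of the maxillary (upper) first molar. All tooth germs were microdissected from wild-type C57Bl6 embryos at E14.5 (embryonic day 14.5, the cap stage), no group carried a mutation or a treatment, and each sample pooled 4 tooth germs. Biotin-labelled cDNA was hybridised to 1-colour Affymetrix whole-transcript gene arrays, and the deposited values were log2 signals after RMA, a joint background correction, normalisation and probe summary. A difference of 1 on this scale is a 2-fold change. The samples were taken as replicates of a tooth, and whether the pools came from separate litters was not stated. Each p-value is therefore set against the spread of these pools, which may be technical in part. The number of arrays limits the precision.

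Tooth shape and tooth position are laid down early in the jaw. Mesenchyme that comes from the cranial neural crest carries a code of homeobox transcription factors that differs between the incisor and molar fields and between the upper and lower jaws, and the epithelium signals to it through FGF, BMP, Wnt and Hedgehog ligands from the enamel knot, the signalling centre of the cap stage tooth. Retinoic acid, which is made by aldehyde dehydrogenases and broken down by enzymes of the Cyp26 family, acts through nuclear receptors in the same tissues.

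A gene was counted as gained or lost in the mandibular molar when it differed from the lower incisor and from the maxillary molar in the same direction by over 1.2-fold, and when the larger of its p-values in the 2 comparisons stayed below 0.1 after Benjamini-Hochberg adjustment over all 29356 probe sets above background (limma). Of these probe sets, 7 were higher in the mandibular molar than in both other teeth, which is 0.0238% of those tested, and 7 were lower, again 0.0238%. The 7 gained genes were Slc25a21, Ppfia2, Lipg, Bnc1, Jazf1, Onecut1 and Chn2. The 7 lost genes were Cyp26c1, Alx1, Hpse2, Ryr2, Slc1a3, Mab21l2 and Fcrl6. For each of these 14 genes no mandibular sample overlapped any incisor or maxillary sample, whereas over all probe sets 36 (0.123%) lay entirely above and 31 (0.106%) lay entirely below every other sample. Above 2-fold against both teeth, limma called 2 lost genes, Alx1 and Cyp26c1, and 0 gained genes. At an unadjusted p under 0.05 in both comparisons 2 probe sets were over 2-fold higher and 2 were over 2-fold lower, and 208 higher and 155 lower had such a p at any size of change. The test named in the study's methods, run per comparison, called 0 gained genes above 2-fold as well.

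**Figure D1:**
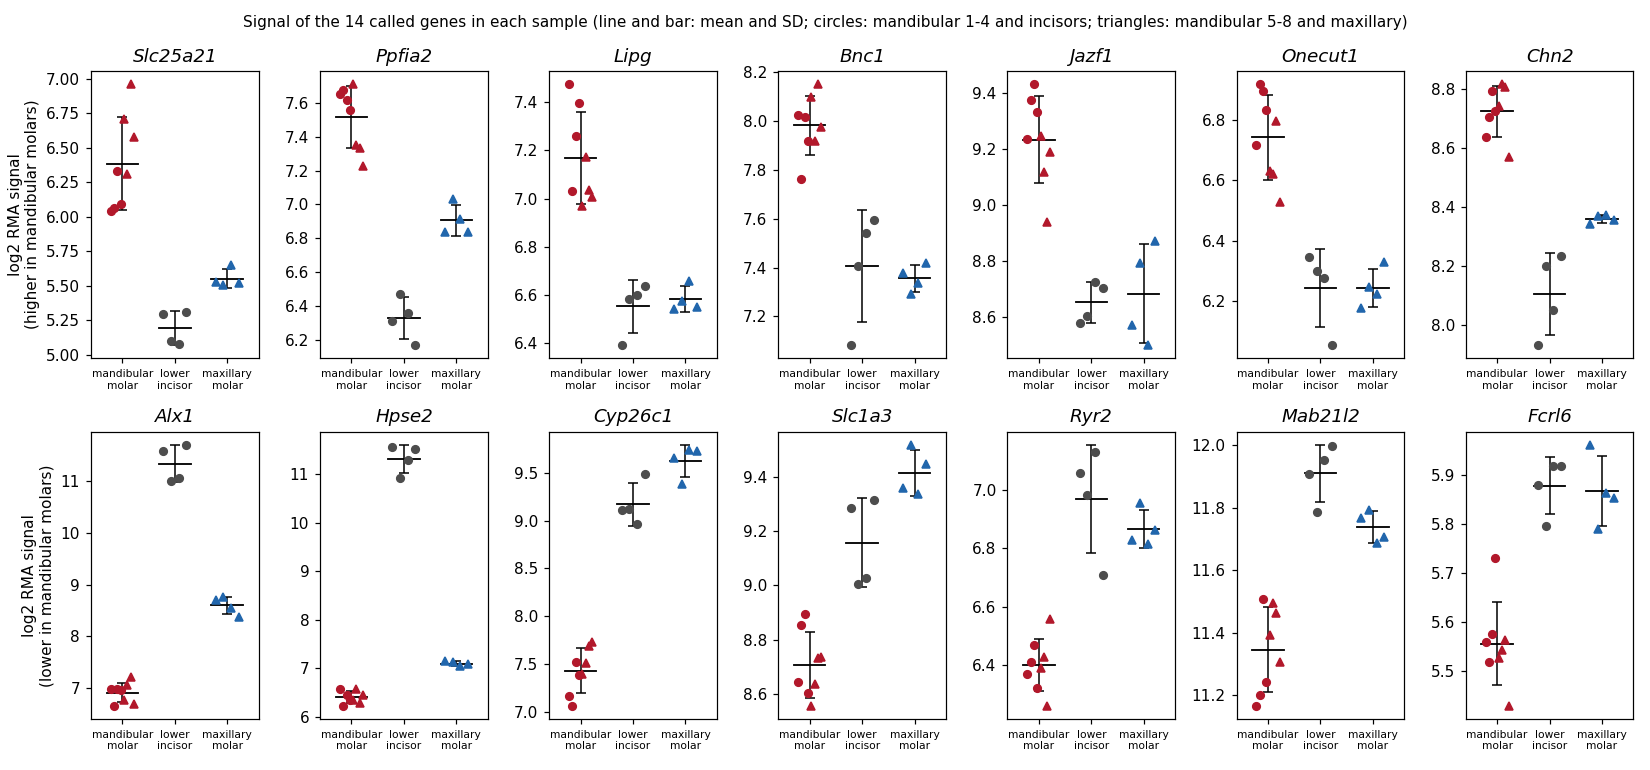
Each panel shows the log2 RMA signal (y axis, scaled per gene) of 1 of the 14 called genes in 8 mandibular molar, 4 lower incisor and 4 maxillary molar samples, with mean and SD. Circles stand for mandibular molars 1 to 4 and lower incisors, triangles for mandibular molars 5 to 8 and maxillary molars, and in no panel do the mandibular points overlap the others.

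The mandibular samples were not uniform. Mandibular molars 1 to 4 and 5 to 8 differed between themselves at 1307 probe sets higher in samples 1 to 4 (4.45% of those tested) and 2099 lower (7.15%), by limma at an adjusted p under 0.1 and over 1.2-fold. Over all probe sets the median correlation of mandibular molars 5 to 8 was 0.992 with the maxillary molars and 0.984 with mandibular molars 1 to 4, and that of mandibular molars 1 to 4 was 0.985 with the lower incisors. These correlations describe arrays that share probes and normalisation, and the labels name no batch. Samples were therefore also treated as 2 sets, one with mandibular molars 1 to 4 and the incisors and the other with mandibular molars 5 to 8 and the maxillary molars. With the set as a block, each comparison rests on the mandibular samples of its own set, and 5 probe sets (0.017%) were then called higher and 5 (0.017%) lower. Of the 14 genes 3 kept the call: Cyp26c1, Alx1 and Slc25a21. Whether the sets reflect litters, dissections or hybridisations was not tested.

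Cyp26c1, an enzyme that degrades retinoic acid, was lost against both teeth by similar amounts. Its signal ranged from 7.06 to 7.73 in the mandibular molars (median 7.45), against 8.97 to 9.49 in the lower incisors and 9.38 to 9.75 in the maxillary molars. All 8 mandibular samples lay more than 1 log2 unit below every other sample. It was 3.35-fold lower than in incisors (log2 difference -1.74 ± 0.13, SE) and 4.59-fold lower than in maxillary molars (-2.20 ± 0.13), with an adjusted p of 1.02e-05 for both together (limma). Within the sets the differences were -1.89 and -2.05, and the adjusted p with the set block was 1.01e-05.

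Alx1, an aristaless-like homeobox factor of the facial mesenchyme, was lost against both teeth but to different degrees. The mandibular molars held signals of 6.66 to 7.21 (median 6.97), against 10.99 to 11.70 in the lower incisors and 8.38 to 8.76 in the maxillary molars. The 3 groups formed separate steps, with the maxillary molar in the middle. The difference was -4.41 ± 0.14 from the incisors, or 21.2-fold lower, and -1.68 ± 0.14 from the maxillary molars, or 3.2-fold lower (adjusted p = 2.73e-05 by limma, 0.000665 with the set block).

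Hpse2, which encodes heparanase 2, a protein that binds heparan sulfate and restrains heparanase, had the widest gap to the incisors. Its signal was 6.22 to 6.58 in the mandibular molars (median 6.39), against 10.92 to 11.55 in the lower incisors and 7.03 to 7.14 in the maxillary molars. It was 30.2-fold lower than in the incisors (-4.92 ± 0.10), whereas the gap to the maxillary molars was 1.62-fold (-0.69 ± 0.10). The adjusted p was 0.0342 by limma and 0.116 with the set block, which ended the call.

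The other lost genes changed less. Ryr2, the calcium release channel of heart muscle, measured 6.26 to 6.56 in the mandibular molars (median 6.40), against 6.71 to 7.13 in the lower incisors and 6.81 to 6.96 in the maxillary molars. It was 1.48-fold and 1.38-fold lower (-0.57 ± 0.07 and -0.46 ± 0.07, adjusted p = 0.0342 by limma). Slc1a3, a glutamate transporter of glia, measured 8.55 to 8.89 in the mandibular molars (median 8.69), against 9.0 to 9.31 in the lower incisors and 9.34 to 9.52 in the maxillary molars. Its closest samples were mandibular molar 3 at 8.89 and lower incisor 2, and it was 1.37-fold and 1.64-fold lower (adjusted p = 0.0706 by limma). Mab21l2, a gene needed for eye and body wall development in the mouse, was strongly expressed in every tooth, at 11.17 to 11.51 in the mandibular molars (median 11.35), against 11.79 to 11.997 in the lower incisors and 11.69 to 11.79 in the maxillary molars. It was 1.48-fold and 1.31-fold lower (adjusted p = 0.0978 by limma). Fcrl6, an Fc receptor-like gene, lay close to background, at 5.43 to 5.73 in the mandibular molars (median 5.55), against 5.80 to 5.92 in the lower incisors and 5.79 to 5.96 in the maxillary molars, and it was 1.25-fold and 1.24-fold lower (adjusted p = 0.0711 by limma). None of these 4 kept the call with the set block, where the adjusted p ran from 0.161 for Ryr2 to 0.553 for Mab21l2.

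Among the gained genes, Slc25a21, a mitochondrial carrier for dicarboxylic acids, was the one that stayed called within the sets. Its signal ranged from 6.05 to 6.96 in the mandibular molars (median 6.32), against 5.08 to 5.31 in the lower incisors and 5.51 to 5.66 in the maxillary molars. The incisors and maxillary molars lay near the limit of 5 set for background, and every mandibular sample was above 6. It was 2.28-fold higher than in incisors (1.19 ± 0.15) and 1.78-fold higher than in maxillary molars (0.84 ± 0.15), with an adjusted p of 0.0793 by limma and 0.0048 with the set block.

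Ppfia2, which encodes liprin-alpha 2, a scaffold of the presynaptic active zone, measured 7.23 to 7.71 in the mandibular molars (median 7.59), against 6.17 to 6.47 in the lower incisors and 6.84 to 7.03 in the maxillary molars. Its order was mandibular molar, maxillary molar, incisor, with a gap at each step, and it was 2.28-fold and 1.52-fold higher (1.19 ± 0.09 and 0.61 ± 0.09, adjusted p = 0.0342 by limma). Lipg, the endothelial lipase, measured 6.97 to 7.48 in the mandibular molars (median 7.10), against 6.39 to 6.64 in the lower incisors and 6.54 to 6.66 in the maxillary molars. The incisors and maxillary molars overlapped each other for Lipg, which was 1.53-fold and 1.5-fold higher in mandibular molars (adjusted p = 0.0342 by limma). Bnc1, a zinc finger factor of the basal layer of stratified epithelium, measured 7.76 to 8.15 in the mandibular molars (median 7.99), against 7.08 to 7.59 in the lower incisors and 7.29 to 7.42 in the maxillary molars, and it was 1.49-fold and 1.54-fold higher (adjusted p = 0.0342 by limma).

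Jazf1, a zinc finger cofactor, measured 8.94 to 9.43 in the mandibular molars (median 9.24), against 8.58 to 8.73 in the lower incisors and 8.50 to 8.87 in the maxillary molars (1.49-fold and 1.46-fold higher, adjusted p = 0.0427 by limma). Mandibular molar 7 and maxillary molar 4 were the closest pair for this gene. Onecut1, the liver-enriched factor HNF6, measured 6.53 to 6.92 in the mandibular molars (median 6.76), against 6.05 to 6.35 in the lower incisors and 6.18 to 6.33 in the maxillary molars, and was 1.41-fold higher than in each (adjusted p = 0.0342 by limma). Chn2, which encodes beta-chimaerin, a GTPase-activating protein for Rac, measured 8.57 to 8.82 in the mandibular molars (median 8.73), against 7.93 to 8.23 in the lower incisors and 8.34 to 8.37 in the maxillary molars. The maxillary samples of Chn2 were the least spread, and the gene was 1.54-fold and 1.29-fold higher in mandibular molars (adjusted p = 0.0638 by limma). The 6 gained genes other than Slc25a21 lost the call with the set block, with adjusted p from 0.161 to 0.212.

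**Figure D2:**
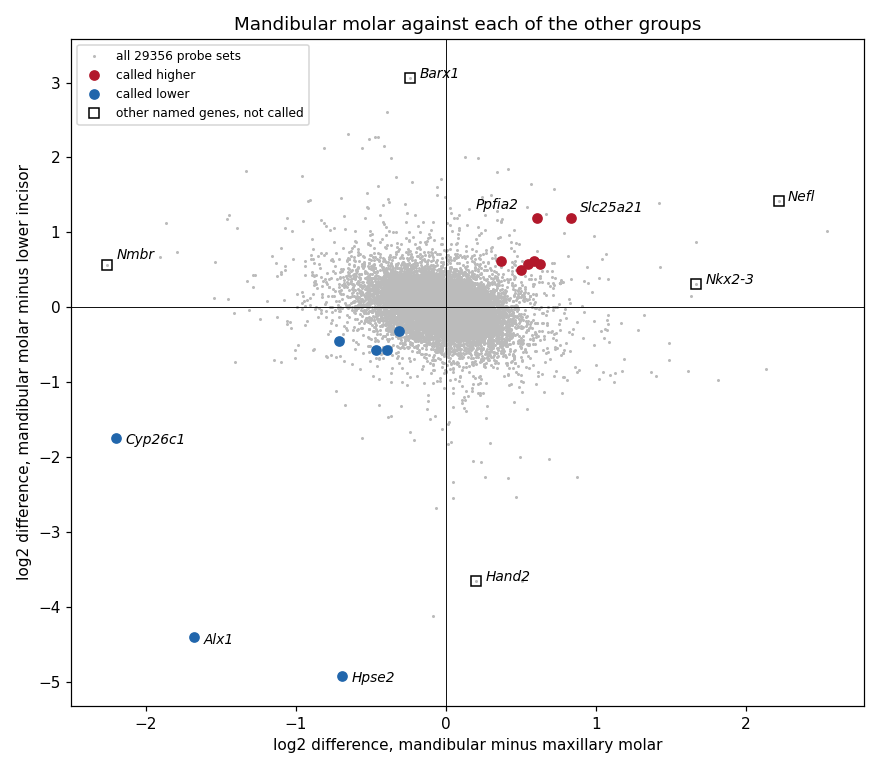
The log2 difference of the mandibular molar from the lower incisor (y axis) is plotted against its difference from the maxillary molar (x axis) for all 29356 probe sets. Called genes (filled) sit in the upper right and lower left, with Cyp26c1 at -1.74 and -2.20, while Barx1, Hand2, Nkx2-3 and Nmbr (open squares) depart mainly along 1 axis.

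The 14 calls were not equally stable when single samples were left out. Cyp26c1 and Alx1 were called in all 16 such fits, with adjusted p at most 6.48e-05 and 0.000415 (limma). Hpse2, Ryr2 and Ppfia2 lost the call only when any 1 of the 4 maxillary molars was left out, with adjusted p up to 0.205 for Hpse2, 0.219 for Ryr2 and 0.205 for Ppfia2. Bnc1 lost it without maxillary molar 1, 2 or 3 (up to 0.154). Lipg lost it without lower incisor 1 or any maxillary molar (up to 0.205), Onecut1 without lower incisor 4 or any maxillary molar (up to 0.205), and Jazf1 without lower incisor 1, mandibular molar 5 or maxillary molar 1, 2 or 3 (up to 0.251). Chn2 remained called in 6 of the 16 fits, Slc25a21 and Slc1a3 in 5 each, and Mab21l2 and Fcrl6 in 3 each. The difference of each called gene from the mean of the other teeth kept its sign in every setting followed. The signs of the 2 separate differences were not followed.

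**Figure D3:**
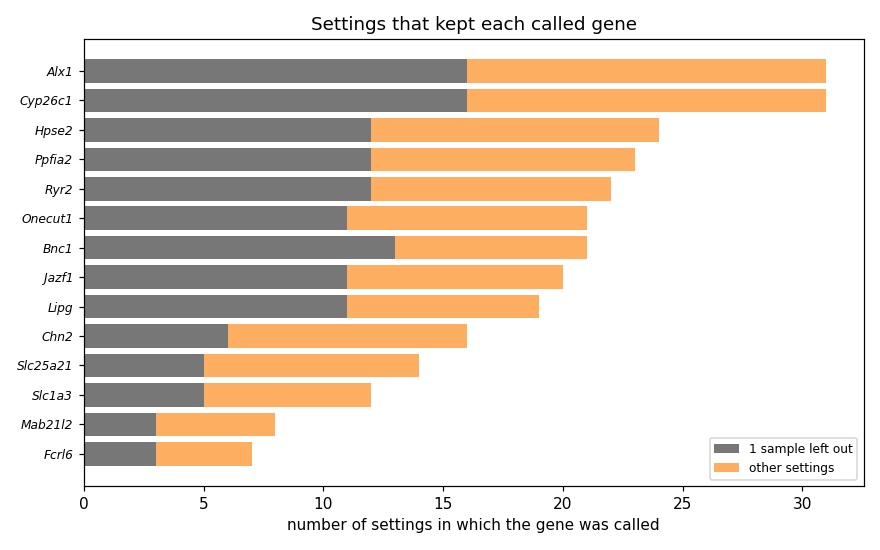
Bars give, for each of the 14 called genes, the number of settings (x axis) in which it was called, out of 16 fits that left out 1 sample (grey) and up to 15 other settings (orange). Alx1 and Cyp26c1 reached the full length of 16 and 15, and Fcrl6 was called in 3 of 16 and 4 of 14.

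Genes that the set block added were examined next, and they were singled out after their values had been seen. Nefl, the light chain of neurofilaments, measured 7.86 to 9.30 in the mandibular molars (median 8.80), against 6.86 to 8.14 in the lower incisors and 6.17 to 6.70 in the maxillary molars. Mandibular molar 6 fell below lower incisor 2, so the groups overlapped across sets, but within the sets the gaps were 1.82 and 1.83. Its adjusted p was 0.137 without the block and 0.0109 with it (limma). Clrn1, which encodes clarin 1, a protein of hair cells and photoreceptors, measured 6.44 to 7.35 in the mandibular molars (median 6.92), against 6.19 to 6.35 in the lower incisors and 5.75 to 5.95 in the maxillary molars, and its differences within the sets were 0.84 and 0.85 (limma adjusted p = 0.0064 with the block). Pitx1, a homeobox factor of the mandible and hindlimb, measured 10.65 to 11.33 in the mandibular molars (median 10.94), against 10.08 to 10.68 in the lower incisors and 9.79 to 10.22 in the maxillary molars. Its overlap with the incisors was confined to mandibular molar 7 and lower incisor 2, and within the sets it was 0.74 and 0.73 higher (limma adjusted p = 0.0756 with the block).

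Corin, a serine protease that activates atrial natriuretic peptide, was the fifth gene called higher with the block, by 0.59 and 0.68 within the sets (adjusted p = 0.0295), but without the block it did not differ from the incisors at the threshold (0.32 ± 0.14, adjusted p = 0.195 by limma). Itga8, the integrin alpha 8 chain of mesenchymal cells, measured 8.25 to 9.0 in the mandibular molars (median 8.61), against 9.05 to 9.60 in the lower incisors and 9.67 to 9.85 in the maxillary molars. Its mandibular samples lay below all others, by 0.91 and 0.95 within the sets (limma adjusted p = 0.0181 with the block). Rtn4rl1, a Nogo receptor-like protein of neurons, measured 6.89 to 8.00 in the mandibular molars (median 7.41), against 8.03 to 8.25 in the lower incisors and 8.72 to 8.92 in the maxillary molars, and it was 1.04 and 1.1 lower within the sets (limma adjusted p = 0.000665 with the block). The tenth call was 1 of the 2 probe sets of Kbtbd11, a BTB-domain gene, which was lower by 0.35 ± 0.08 and 0.79 ± 0.08 without the block (limma adjusted p = 0.0083 with it), whereas the brighter probe set of that gene was lower by 0.32 ± 0.07 and 0.29 ± 0.07 and was not called with the block.

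**Figure D4:**
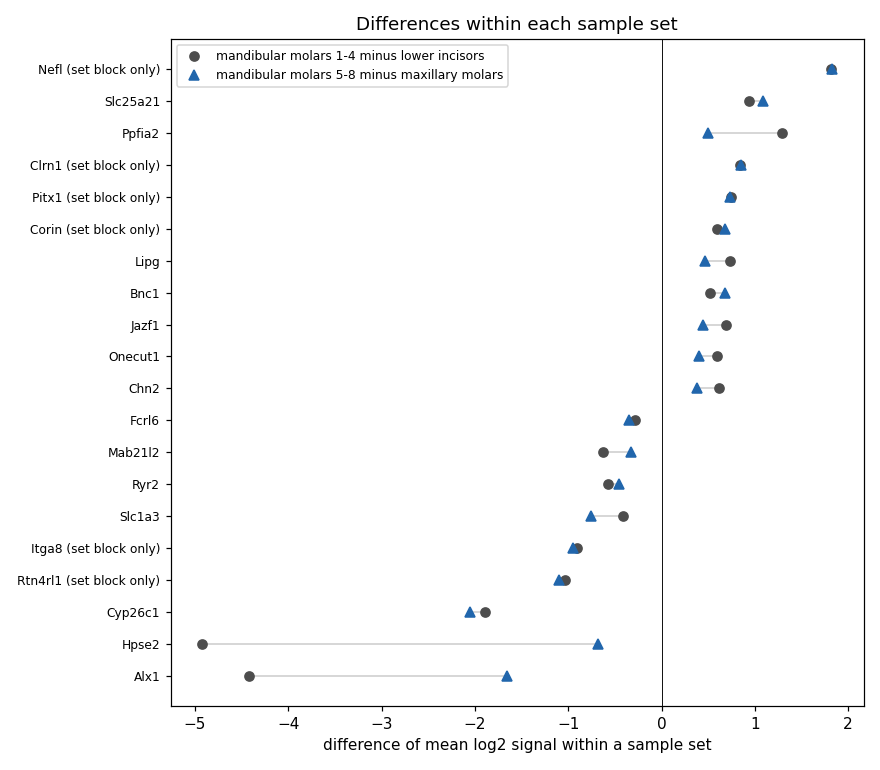
For 20 genes (y axis) the difference of mean log2 signal (x axis) is shown between mandibular molars 1 to 4 and lower incisors (circles) and between mandibular molars 5 to 8 and maxillary molars (triangles). Both points of a gene lie on the same side of 0, close together for Nefl (1.82 and 1.83) and far apart for Hpse2 (-4.92 and -0.69).

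Cyp26a1, a second retinoic acid hydroxylase, is the next measured coding gene on chromosome 19. It was lower in mandibular molars than in maxillary molars only, at 6.60 to 7.41 (median 7.00) in the mandibular molars, against 6.68 to 7.31 in the lower incisors and 7.88 to 7.93 in the maxillary molars. The mandibular molars and incisors overlapped fully (0.03 ± 0.13, adjusted p = 0.904 by limma), while the step to the maxillary molars was -0.90 ± 0.13 (adjusted p = 0.0015). The promoters of both neighbours, and of Slc25a21 as the gained gene that stayed called within the sets, are shown from 250 bases before to 50 bases after the start (RefSeq, GRCm38.p6), read 5′ to 3′ on the strand of the gene. Of the 14 called genes 12 had an entry in the promoter table. Capitals mark the letters AGTTCA or AGGTCA, half-sites of the kind that retinoic acid receptors bind, searched on both strands, where they read TGAACT and TGACCT. The pair do not overlap each other in any of the windows shown.
Cyp26c1: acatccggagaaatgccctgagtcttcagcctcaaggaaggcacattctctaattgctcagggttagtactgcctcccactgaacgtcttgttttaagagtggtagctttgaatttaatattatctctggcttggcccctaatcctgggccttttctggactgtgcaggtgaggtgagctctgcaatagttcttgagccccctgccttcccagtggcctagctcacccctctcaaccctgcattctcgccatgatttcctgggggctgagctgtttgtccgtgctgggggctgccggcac
Cyp26a1: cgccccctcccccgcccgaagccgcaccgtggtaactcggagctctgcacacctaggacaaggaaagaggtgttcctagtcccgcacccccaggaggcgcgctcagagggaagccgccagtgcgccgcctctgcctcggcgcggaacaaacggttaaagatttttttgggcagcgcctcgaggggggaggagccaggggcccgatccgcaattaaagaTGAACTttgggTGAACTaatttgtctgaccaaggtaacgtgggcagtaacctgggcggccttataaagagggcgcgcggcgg
Slc25a21: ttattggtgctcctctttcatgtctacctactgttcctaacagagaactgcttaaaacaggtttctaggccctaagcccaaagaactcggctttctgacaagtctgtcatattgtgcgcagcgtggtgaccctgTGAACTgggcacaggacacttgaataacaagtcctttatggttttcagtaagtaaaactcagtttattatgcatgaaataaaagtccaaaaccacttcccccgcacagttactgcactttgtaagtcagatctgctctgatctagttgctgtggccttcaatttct
The Cyp26c1 window lies at chr19:37685430-37685729 on the plus strand and held neither motif. The Cyp26a1 window, at chr19:37697558-37697857 on the plus strand, held AGTTCA on the opposite strand at 32 and at 21 bases before the start, with 5 bases between them. The Slc25a21 window, at chr12:57197423-57197722 on the minus strand, is 1 of 2 starts listed for that gene and held 1 match, 116 bases before the start. The other start, with its window at chr12:57160594-57160893, held neither motif. Over all 32851 promoters in the table, 14% held AGTTCA and 16.3% held AGGTCA. A match describes the letters and no binding was measured.

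Aldh1a1, Cyp26a1 and Rorb, of the other retinoid genes, were lower than in maxillary molars. Of 22 measured genes of retinoid metabolism and retinoid receptors, 1 was higher and 4 (18.2%) were lower than the mean of the other teeth, where over all 17328 genes 196 (1.13%) were higher and 202 (1.17%) lower (limma, adjusted p under 0.1, over 1.2-fold). At an unadjusted p under 0.05 the counts for the 22 genes were 1 higher and 6 lower, beside 1055 (6.09%) higher and 808 (4.66%) lower of all genes. The median difference over the 22 genes was -0.04 from the mean, -0.09 from the incisors and 0.02 from the maxillary molars, beside 0.01, 0.00 and 0.02 over all genes. In this contrast the incisor and the maxillary molar count equally, so a gene can be called through 1 of them. Aldh1a1, which makes retinoic acid, was 0.76 lower than in maxillary molars and level with the incisors (-0.06 ± 0.08), and Rorb, an orphan receptor, was 1.24 lower than in maxillary molars and 0.16 lower than in incisors. Cyp1b1, a cytochrome P450 that can oxidise retinol, was 2.32 higher than in incisors and 0.65 lower than in maxillary molars. Cyp26c1 was the single member that passed against both teeth.

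Other genes were lost or gained against each tooth when the adjusted p of each comparison was read by itself. By this wider rule 47 probe sets (0.16%) were higher and 48 (0.164%) lower than in both teeth (limma, adjusted p under 0.1 in each, over 1.2-fold), or 43 of 17328 genes by their brightest probe set (0.248%) and 44 (0.254%). All 14 genes above were among these 95 probe sets, and 50 of the 95 showed no overlap. Both comparisons share the 8 mandibular samples, so that a chance deviation of those samples enters both. The mean contrast itself called 214 probe sets higher (0.729%) and 226 lower (0.77%), and the 95 were all among them.

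The transcription factors that pattern the jaw were the list with the highest counts. Of 52 measured members 12 were higher and 12 lower in mandibular molars than in the mean of the other teeth, 23.1% each way beside 1.13% and 1.17% of all genes, with a median difference of -0.03. Most of these followed 1 of the other teeth. Barx1, a molar mesenchyme factor, averaged 11.31 ± 0.12 in mandibular molars (SD, n = 8), 8.25 ± 0.44 in lower incisors and 11.54 ± 0.11 in maxillary molars (n = 4 each), and the difference between the molars was -0.24 ± 0.14. Hand2, a basic helix-loop-helix factor of the distal mandible, averaged 6.68 ± 0.10 in mandibular molars, 10.33 ± 0.17 in lower incisors and 6.48 ± 0.10 in maxillary molars, and Pou3f3, a maxillary mesenchyme factor, differed from the maxillary molars alone (-1.31 ± 0.16, against -0.03 ± 0.16 from the incisors).

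Of the 52 factors, 3 were higher and 3 lower than in each of the other teeth, beside 0.248% and 0.254% of all genes. Nkx2-3, a homeobox factor, measured 7.91 to 8.42 in mandibular molars (median 8.31), against 7.77 to 8.26 in lower incisors and 6.55 to 6.70 in maxillary molars. The first pair of groups overlapped, and the differences were 0.32 ± 0.10 and 1.67 ± 0.10 (limma adjusted p = 0.0719 and 1.36e-07). Dlx6, a homeobox factor of the lower jaw, was 0.53 ± 0.16 and 1.43 ± 0.16 higher, with adjusted p of 0.0649 and 0.000174, and Pitx1 was the third. Foxf2, a forkhead factor of oral mesenchyme, measured 8.32 to 9.08 in mandibular molars (median 8.58), against 8.93 to 9.89 in lower incisors and 9.62 to 9.95 in maxillary molars. Mandibular molars 6 and 8 exceeded the lowest incisor, sample 3, and Foxf2 was 0.73 ± 0.16 and 1.1 ± 0.16 lower. Foxd1, another forkhead factor, was 1.30 ± 0.17 and 0.68 ± 0.17 lower, with maxillary molar 4 at 6.83 inside the mandibular range of 6.56 to 7.27, and Alx1 was the third.

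Of 38 measured members of the FGF pathway 6 (15.8%) were higher and 0 lower than the mean of the other teeth, beside 1.13% and 1.17% of all genes, with a median difference of 0.09 (limma). At an unadjusted p under 0.05 the counts were 13 and 2, beside 6.09% and 4.66% of all genes. Of the 38, 16 had the same sign against both teeth, beside 5494 of all 17328 genes (18.6% higher and 13.1% lower in both). Spry1, a feedback inhibitor of FGF receptors, measured 10.42 to 10.62 in mandibular molars (median 10.49), against 9.69 to 10.08 in lower incisors and 10.10 to 10.29 in maxillary molars. Its family member Spry2 measured 8.26 to 8.56 in mandibular molars (median 8.48), against 7.88 to 8.24 in lower incisors and 7.90 to 8.10 in maxillary molars. Neither gene overlapped the other teeth, and both passed the wider rule, Spry1 by 0.55 ± 0.07 and 0.33 ± 0.07 and Spry2 by 0.37 ± 0.08 and 0.41 ± 0.08, but their adjusted p by the stricter rule was 0.239 for each. Fgf20, an enamel knot ligand, was 1.08 ± 0.14 higher than in incisors and 0.21 ± 0.14 higher than in maxillary molars. Dusp6, an ERK phosphatase that FGF signalling induces, and Fgf12 and Fgf14, intracellular members of the family, were likewise above the incisors by 1.13, 0.76 and 0.85 and within 0.20 of the maxillary molars.

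In the BMP and TGF-beta, Wnt, and Hedgehog and Notch lists 1 gene passed against each tooth. Of 52 BMP and TGF-beta genes 0 were higher and 4 lower than the mean of the other teeth (6 and 9 at an unadjusted p under 0.05, limma), beside 1.13% and 1.17% of all genes (6.09% and 4.66% at that p), and of those 4 Bmp6, a BMP ligand, passed against each tooth. It measured 9.43 to 9.91 in mandibular molars (median 9.73), against 9.86 to 10.19 in lower incisors and 9.98 to 10.14 in maxillary molars, and was 0.36 ± 0.09 and 0.39 ± 0.09 lower. Bmp5 and Bambi were below the incisors alone, by 1.54 and 0.79. Of 62 Wnt genes 4 were higher and 4 lower, and of these Sfrp4, a secreted Wnt inhibitor, fell the most, by 4.12 against the incisors but only 0.08 against the maxillary molars. Of 36 enamel knot and tooth signal genes 3 were higher and 2 lower, and of 34 Hedgehog and Notch genes 0 were higher and 1, Hey2, was lower (3 and 5 at an unadjusted p under 0.05).

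**Figure D5:**
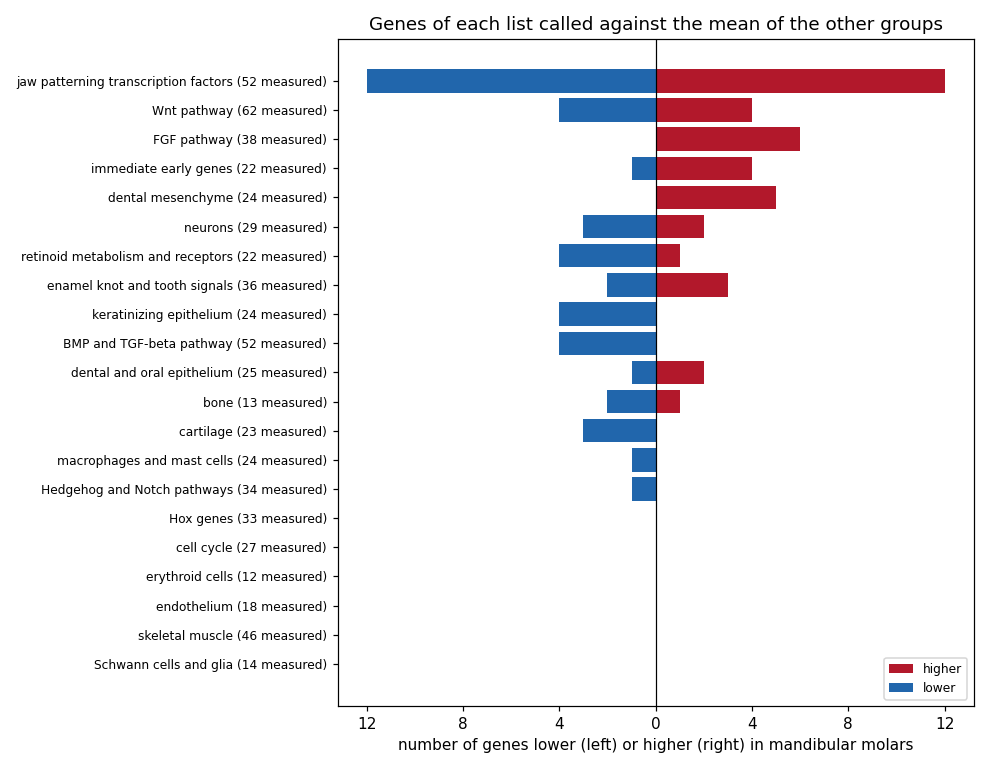
Bars give the number of genes of each list (y axis, with the number measured) that were lower (left) or higher (right) in mandibular molars than the mean of the other teeth. In the main fit jaw patterning factors had 12 each way and FGF pathway genes had 6 higher.

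Markers of the tissues in the pools were compared in the same way, since in pooled tooth germs fewer cells of a type and less RNA per cell cannot be told apart. Of 24 dental mesenchyme genes 5 were higher and 0 lower than the mean of the other teeth (6 and 1 at an unadjusted p under 0.05, limma). Pax9, Lhx6 and Barx1 were among the 5. Of 25 dental and oral epithelium genes 2 were higher and 1, Enam, was lower (8 and 1 at that p). Over all genes 1.13% were higher and 1.17% lower, and 6.09% and 4.66% at that p. The mean log2 signal of the mesenchyme list was 10.68 to 10.98 in mandibular molars, against 10.33 to 10.52 in lower incisors and 10.97 to 11.05 in maxillary molars. That of the epithelium list was 9.10 to 9.61 in mandibular molars, against 9.02 to 9.36 in lower incisors and 9.17 to 9.48 in maxillary molars, so both lists stood above background in every pool. Enam, the enamel matrix gene enamelin, lay near background, at 5.09 to 6.09 in mandibular molars, against 5.60 to 6.63 in lower incisors and 5.86 to 6.60 in maxillary molars.

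Muscle and cartilage markers varied between samples. None of 46 skeletal muscle genes was called either way (5 and 0 at an unadjusted p under 0.05, limma, beside 6.09% and 4.66% of all genes). None had the same sign against both teeth, where of all genes 18.6% were higher and 13.1% lower in both. Their mean log2 signal was 6.92 to 8.01 in mandibular molars, against 7.79 to 7.93 in lower incisors and 6.40 to 6.67 in maxillary molars. Of 23 cartilage genes 0 were higher and 3 lower, beside 1.13% and 1.17% of all genes, and at an unadjusted p under 0.05 the counts were 1 and 11, beside 6.09% and 4.66%. The mean signal of the list was 7.14 to 7.28 in mandibular molars, against 7.28 to 8.11 in lower incisors and 7.25 to 7.28 in maxillary molars. Matn4, a matrilin of cartilage matrix, was 0.91 ± 0.14 and 0.48 ± 0.14 lower. Without lower incisors 1 and 4, in which the cartilage genes were high, 2 gained and 4 lost genes were called, a setting added after the data had been seen that also has fewer samples. The 4 lost genes were Cyp26c1, Alx1, Hpse2 and Ryr2, while Slc1a3, Mab21l2 and Fcrl6 lost the call. Of the gained genes only Ppfia2 and Chn2 stayed called. The difference from the mean of the other teeth was then -2.70 for Hpse2 and -0.56 for Ryr2, against -2.80 and -0.52 with all samples. The part of cartilage in the lost genes was not tested. Of 13 bone genes 1, Phex, was higher and 2, Alpl and Bmp3, were lower.

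Neuron genes were called in both directions. Of 29 genes 2 were higher and 3 lower than the mean of the other teeth, beside 1.13% and 1.17% of all genes. At an unadjusted p under 0.05 (limma) the counts were 5 and 4, beside 6.09% and 4.66%. Nefl and Rtn1, a reticulon of neuroendocrine cells, were higher than in each tooth. Rtn1 measured 7.32 to 8.09 in mandibular molars (median 7.48), against 6.74 to 6.83 in lower incisors and 6.76 to 7.20 in maxillary molars. Gap43, a growth cone protein, was lower than in each tooth, at 7.95 to 8.58 in mandibular molars (median 8.33), against 8.64 to 8.90 in lower incisors and 8.63 to 8.86 in maxillary molars. The mean signal of the list was 6.60 to 6.88 in mandibular molars, against 6.78 to 6.86 in lower incisors and 6.53 to 6.66 in maxillary molars. Of 24 keratinizing epithelium genes 0 were higher and 4 lower (1 and 8 at an unadjusted p under 0.05), and Krt1 and Krt10, keratins of suprabasal skin, were lower by 1.74 and 1.47 against the incisors and by 0.56 and 0.38 against the maxillary molars, where the adjusted p was 0.251 and 0.278. Of 22 immediate early genes 4 (Btg2, Ccn1, Egr2 and Egr3) were higher and 1 (Nr4a2) was lower, with 7 and 4 at an unadjusted p under 0.05. The higher count ran from 1 to 5 over the other settings. Of the remaining lists, endothelium, erythroid cells, Schwann cells and glia, cell cycle, sex chromosome and Hox genes had 0 calls each way (together 5 higher and 4 lower of 108 genes at an unadjusted p under 0.05, beside 6.09% and 4.66% of all genes), and macrophages and mast cells had 1 lower.

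Called genes were also set beside their neighbours on the chromosome, by gene order in the RefSeq annotation of GRCm38.p6 and with the neighbours picked by position. Of 28 nearest measured coding genes 11 lay on the same side of 0 as the called gene in both comparisons, where of all genes 18.6% were higher and 13.1% lower in both. Of the 28, 4 were called against the mean of the other teeth, beside 1.13% higher and 1.17% lower of all genes, and 1 passed against each tooth (0.248% and 0.254%). That gene was Creb5, a CREB family factor beside Jazf1 on chromosome 6, which measured 10.24 to 10.85 in mandibular molars (median 10.42), against 9.87 to 10.17 in lower incisors and 9.47 to 10.09 in maxillary molars. Creb5 and Tril are the measured coding genes that lie between Jazf1 and Chn2 there. Tril, a modulator of Toll-like receptor signalling, was 0.69 above the incisors and 0.01 above the maxillary molars.

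Pax9, the paired-box factor required for tooth development, lies beside Slc25a21 on chromosome 12. It measured 10.70 to 10.96 in mandibular molars (median 10.87), against 9.25 to 10.08 in lower incisors and 10.39 to 10.54 in maxillary molars. No sample overlapped, but the step to the maxillary molars (0.37 ± 0.11) did not pass the threshold (adjusted p = 0.119 by limma), while that to the incisors did (1.14 ± 0.11, 8.57e-06). Cnnm1, a membrane protein gene beside Hpse2, was 1.35 ± 0.14 below the incisors and 0.12 ± 0.14 above the maxillary molars.

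A last group was a list of 44 genes that the study named. They were chosen on these samples, so their counts are no independent evidence. The list is partial and leans on the study's comparison of mandibular with maxillary molars, which named each of its members called here. Its median difference was -0.07 from the incisors and 0.42 from the maxillary molars. Hpse2, Hand2, Sfrp4, Pax3, Isl1 and Irx4, which the study tabulated as higher in incisors, were called lower than the mean but are not in it. Barx1 and Six2, tabulated as higher in molars than in incisors, were called higher and are also missing. Of the 44 genes 43 were measured above background. Of these, 10 (23.3%) were higher and 9 (20.9%) lower than the mean of the other teeth, beside 1.13% and 1.17% of all genes. Within the list Alx1 and Cyp26c1 passed the stricter rule, and Angptl1, Dlx6, Nefl, Nkx2-3, Pitx1 and Itga8 passed against each tooth. Angptl1, an angiopoietin-like secreted protein, measured 9.15 to 10.12 in mandibular molars (median 9.67), against 8.52 to 9.33 in lower incisors and 8.23 to 8.79 in maxillary molars. Its groups overlapped, and it was 0.71 ± 0.18 and 1.07 ± 0.18 higher. Nmbr, the neuromedin B receptor, had opposite signs, at 5.86 to 6.38 in mandibular molars, against 5.43 to 5.77 in lower incisors and 8.26 to 8.60 in maxillary molars, and is an example of a gene called lower than the mean that was lost against 1 tooth only.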

How the data were processed

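The deposited values were log2 signals per probe set, which the authors made with RMA in Affymetrix Expression Console 1.1; the genome build of the annotation was not given in the sources used here. The platform annotation gives a single symbol for 21789 of the 35556 probe sets, more than 1 for 1621 and no symbol for the other 12146, and a gene stood for its probe set of a single symbol with the highest mean. All 4 incisor samples were used, since the sample that the study set aside is not named. Probe sets with a log2 signal above 5 in at least 1 sample were kept (29356), and 1 linear model over the 3 groups was fitted with limma 3.58.1 in R 4.3.3 to test the mandibular molar against each group and against their equally weighted mean. The larger of both p-values (1 where signs differed) was adjusted by the Benjamini-Hochberg method. Genes named are the called genes and called members of the gene lists (up to 6 a list by the smaller change). Genes of the list drawn from the study were named as well. Neighbouring genes were picked by position. Others, such as Barx1, Hand2 and Pou3f3, fall outside these rules, and not all of them are marked where they appear as chosen after their values were seen. The members, lists and tests were chosen with earlier results of these data known. Scripts were tested on simulated data. Alternatives covered the filter, scaling, variance model, sample weights, blocks and left-out samples.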

Additional observations from a re-analysis of the deposited data

Results flagged for a closer look

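In 13 of 150 groups of samples tested over 50 genes, 1 sample lay far from the rest of its group. Chance alone does this in about 1 of 20 groups. In the mandibular molars these were sample 2 for Nkx2-3 (7.91, the next 8.27), for Foxd1 (7.27, the next 6.82) and for Wnt10a (8.22, the next 8.54), sample 1 for Rtn1 (8.09, the next 7.51) and sample 6 for Enam (6.09, the next 5.53). In the lower incisors they were sample 3 for Dlx6 (7.96, the next 8.79), sample 4 for Rorb (6.88, the next 6.70) and sample 2 for Barx1 (8.91, the next 8.08). In the maxillary molars they were sample 3 for Slc25a21 (5.66, the next 5.53), sample 1 for Corin (7.27, the next 7.52), sample 4 for Foxd1 (6.83, the next 7.61) and for Alpl (11.72, the next 11.59), and sample 2 for Bmp6 (9.98, the next 10.12). Without maxillary molar 4 Foxd1 had an adjusted p of 0.141 by the rule over both groups, against 0.67 with all samples (limma).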

How the results depend on the processing

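The main counts were 7 probe sets higher and 7 lower than in both groups, 0 and 2 above 2-fold, and 214 and 226 against the mean. Centring each sample on its median gave 4 and 4 against both. Array weights gave 15 and 12, and 406 and 379 against the mean. Student's t-test gave 1 and 3, and fitting each comparison on its own samples 1 and 4. Neither yields a value for the mean. Reading each adjusted p alone gave 47 and 48, with 1 higher above 2-fold, and with the sample set block 28 and 20, with 2 higher above 2-fold. The set block under the main rule gave 1 higher above 2-fold. Mandibular molars 1 to 4 alone gave 20 and 13, 1 higher above 2-fold, and 388 and 470 against the mean, and 5 to 8 alone gave 1 and 2, 1 higher above 2-fold, and 784 and 423. With 1 probe set per gene the counts were 19 and 12, with 1 higher above 2-fold. Without lower incisors 1 and 4 (added after seeing the data) they were 2 and 4. With 1 sample left out the counts ran from 0 to 8 higher and from 2 to 10 lower, and from 0 to 1 higher above 2-fold: without maxillary molar 1, 2 or 3 they were 0 and 2, without maxillary molar 4 they were 2 and 2, without lower incisor 4 the lower count was 4, without mandibular molar 1 it was 4, and without mandibular molar 5 they were 4 and 4. Leaving out lower incisor 2, mandibular molar 6 or mandibular molar 8 gave 1 higher above 2-fold. The cause was not tested.

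Replicate numbers 1 to 4 are shared between the groups. Same-numbered samples deviated together with correlations from -0.0696 to 0.504, and the numbers were not taken as pairs. The same number matched best for mandibular molars and incisors 3 (0.327) and 4 (0.504). It also did for mandibular and maxillary molars 2 (0.338) and for incisors and maxillary molars 4 (0.242). Mandibular deviations were taken from the mean of all 8 samples. Whether samples of some numbers belong together was not tested. With the replicate block the counts were 16 and 19, 1 and 4 above 2-fold, and 481 and 627 against the mean. Of the 14 called genes 8 were among those called with the replicate block.

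No log2 difference from the mean of the other teeth changed sign with a call among the 50 genes followed. Their calls were the same in 1339 cases, lost in 164 and gained in 46. Only the 14 genes called in the main fit could lose a call. Most of the cases counted as the same were genes not called in the main fit that stayed uncalled. Other scalings moved the median difference of all probe sets by less than 0.1. The counts of the gene lists against the mean also depended on the setting. Over the other settings, lower cartilage genes ran from 1 to 8 and lower BMP and TGF-beta genes from 3 to 11. Higher FGF pathway genes ran from 5 to 12, and higher dental and oral epithelium genes from 0 to 7. Jaw patterning factors varied less, from 12 to 14 higher and from 11 to 14 lower. Slc25a21, Fcrl6 and Enam lie near the background limit, where signal bounds what can be measured.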

Other observations

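Further genes also passed against each tooth, and they were picked after their values were seen. Meox2, a homeobox factor of limb and muscle mesenchyme, measured 8.88 to 9.90 in mandibular molars (median 9.27), against 8.07 to 8.57 in lower incisors and 8.33 to 8.75 in maxillary molars. No sample overlapped, and it was 1.98-fold and 1.73-fold higher (adjusted p = 0.352 over both by limma). Ntn1, which encodes netrin 1, an axon guidance cue, measured 8.32 to 8.81 in mandibular molars (median 8.54), against 7.78 to 8.20 in lower incisors and 7.70 to 8.02 in maxillary molars, and was 1.5-fold and 1.65-fold higher (adjusted p = 0.145). Thbs4, a thrombospondin of tendon and muscle matrix, was 1.94-fold and 1.99-fold higher, with overlapping samples.

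Slitrk6, a transmembrane protein of neurons and the inner ear, measured 7.18 to 7.84 in mandibular molars (median 7.55), against 8.29 to 9.05 in lower incisors and 8.17 to 8.31 in maxillary molars. It was 2.17-fold and 1.66-fold lower without overlap (adjusted p = 0.153 over both by limma). Alpl, the alkaline phosphatase of mineralising tissue and a member of the bone list, was 1.33-fold and 1.34-fold lower, at 10.78 to 11.52 in mandibular molars, against 11.33 to 11.86 in lower incisors and 11.58 to 11.72 in maxillary molars.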
